A study of Rattus norvegicus with 18 samples.

Results

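The smooth muscle and myofibroblast contractile genes examined here were *Acta2*, *Actg2*, *Tagln*, *Cnn1*, *Lmod1*, *Synpo2*, *Smtn*, *Myh11*, *Des* and *Myocd*. They were chosen by gene symbol, with earlier results of these data known, and all 10 were found among the 22081 genes of the deposited tables. Values of each gene were compared across the 6 groups formed by treatment and year.

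In smooth muscle, actin thin filaments slide along filaments of smooth muscle myosin when calcium and calmodulin switch on myosin light chain kinase. Filaments of desmin and dense bodies carry the force through the cell, and serum response factor (SRF) with its cofactor myocardin switches on most genes of this apparatus through a DNA element known as the CArG box. In the lung these genes are used by the smooth muscle of airways and vessels, in part by pericytes, and in fibrosis by myofibroblasts, for which smooth muscle actin is the usual marker.

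The samples were lungs of 18 male F344 rats, a separate animal for each library. MWCNT-treated rats received intratracheal instillations of 0.5 mg/kg of MWNT-7, a multiwalled carbon nanotube, every 4 weeks from 9 weeks of age, and control rats (Vehicle in the labels) received saline with Tween 80 in the same way. There were 3 control and 3 MWCNT-treated rats at each of Years 0.5, 1, and 2, with dosing continued up to each time point. RNA came from small pieces of the accessory lobe without tumor nodules visible to the eye. The rest of that lobe was checked for tumors under the microscope. Each library thus mixed all cell types of a lung piece, and small focal lesions could be included.

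Between 13297643 and 21130757 reads per rat were counted to genes. No pair of libraries held identical counts. For the contractile genes the lowest count in any rat was 32, for *Myocd*, and the highest was 7344, for *Myh11*. Levels are given below as TPM, a transcript abundance scaled for gene length and library total, and as CPM, a count scaled for library total only. Differences were tested on the counts with edgeR after trimmed mean of M-values (TMM) scaling, and are given as log2 fold change of MWCNT-treated against control rats with the standard error (SE) and the false discovery rate (FDR) over all genes tested.

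The contractile genes were lower in the MWCNT-treated lungs at every time point. At an FDR below 0.05, 10 of 10 were downregulated at Year 0.5, 10 of 10 at Year 1, and 9 of 10 at Year 2, the exception being *Smtn*. Of all genes tested, 18.6%, 19.6%, and 24% were downregulated at these time points. Because the 10 genes were chosen with earlier results of these data known, the comparison with these shares is only a description. The median log2 fold change of the 10 genes was -0.70, -0.90, and -0.89 at Years 0.5, 1, and 2, while that of all genes tested was -0.02, 0.00, and -0.01. In bulk tissue, fewer cells expressing a gene, less RNA of that gene per cell, and a larger share of RNA from other cells cannot be told apart.

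In TPM, each of the 10 genes was lower in all 3 MWCNT-treated rats than in all 3 control rats at every time point. The same separation in TPM was seen for 40.7%, 46.8%, and 45.7% of the tested genes, a background that includes any shift of the whole scale. On TMM-adjusted CPM, the separation held for 10, 10, and 9 of the contractile genes, against 25.6%, 26.4%, and 29.4% of the tested genes. Summed over the 10 genes, the TPM ranged from 1106 to 1809 (median 1389) in the 9 control rats and from 562 to 881 (median 714) in the 9 MWCNT-treated rats, without overlap. For separation across years, here and for single genes below, the share of all tested genes was not computed.

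Fewer members met the DEG criterion of an FDR below 0.05 with an absolute log2 fold change above 1. Downregulated DEGs were *Cnn1* and *Actg2* at Year 0.5, *Myh11*, *Cnn1*, *Lmod1*, and *Myocd* at Year 1, and *Myh11*, *Cnn1*, *Actg2*, and *Myocd* at Year 2, that is 2, 4, and 4 of 10. The background of downregulated DEGs was 3.03%, 4.09%, and 8.22% of the tested genes. These counts rested on single rats. The count at Year 0.5 was 0 without control replicate 3 and 1 without MWCNT replicate 2 or 3, and the count at Year 2 was 1 without control replicate 1. The library label of this last rat ends in b and those of all others in r, and what this marks is not stated. Only *Cnn1* was a DEG at all 3 time points.

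**Figure D1:**
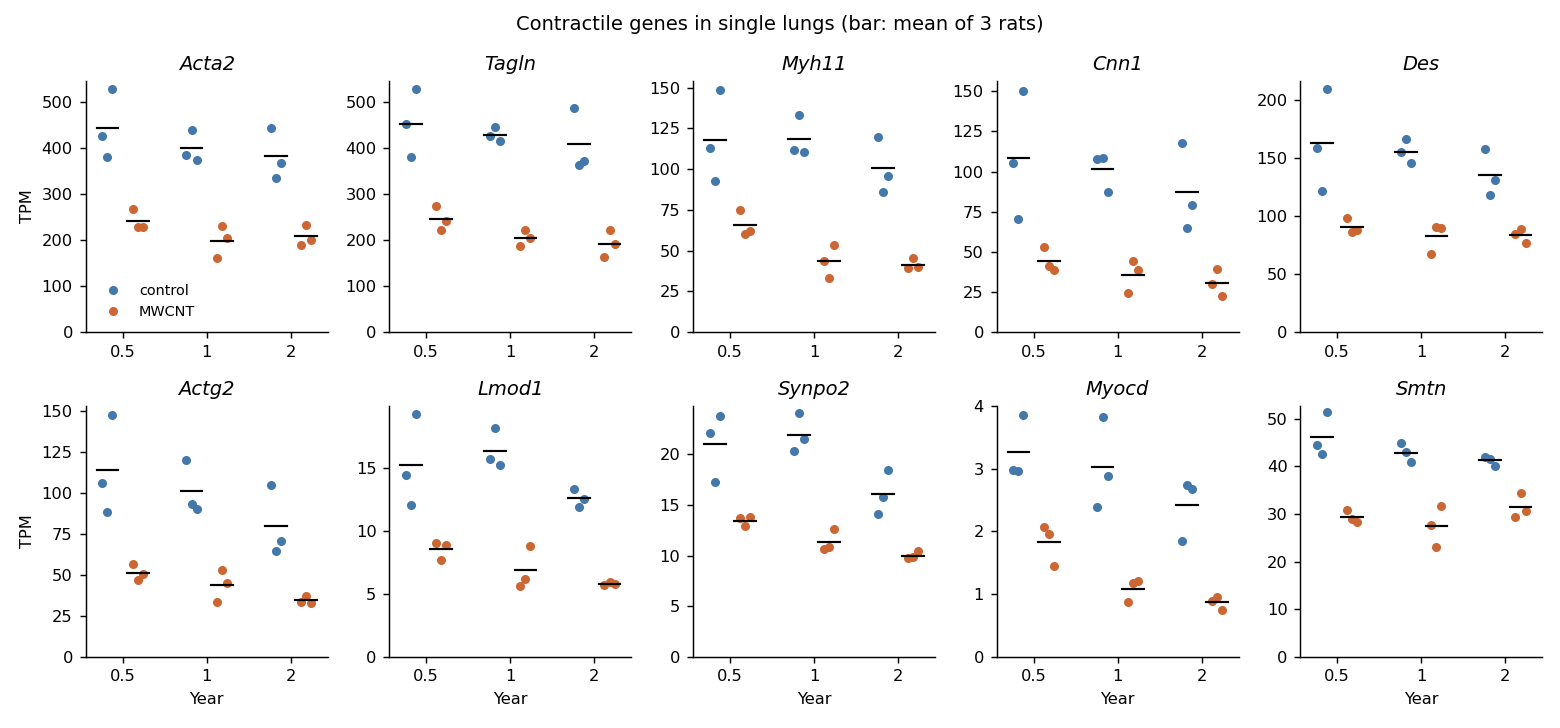
TPM of each contractile gene in every rat, by year, with control rats in blue, MWCNT-treated rats in orange, and a bar at the mean of 3 rats; each panel has its own linear axis from 0. In every panel and year the 3 MWCNT-treated rats lay below the 3 control rats.

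*Acta2*, smooth muscle alpha-actin, was 425, 380.5, and 527 TPM in the control rats of Year 0.5 and 267, 229, and 228 TPM in the MWCNT-treated rats. At Year 1 it was 385, 438, and 374 TPM in control rats and 161, 230.3, and 204 TPM in treated rats, and at Year 2 it was 444, 336, and 368 against 189, 234, and 201 TPM. The highest of the 9 treated rats lay below the lowest of the 9 control rats. Its log2 fold change was -0.74 (SE 0.12, FDR 0.00126), -0.76 (SE 0.14, FDR 0.00316), and -0.67 (SE 0.13, FDR 0.00217) at Years 0.5, 1, and 2. The fall of *Acta2* was of a similar size at each time point. Whether it lay in smooth muscle, pericytes, or myofibroblasts cannot be told in bulk tissue.

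The second smooth muscle actin, *Actg2* (gamma-2 actin of visceral muscle), was 106, 88.5, and 148 TPM in the control rats of Year 0.5, 120.3, 93.4, and 90.2 TPM in those of Year 1, and 105, 64.5, and 70.9 TPM in those of Year 2. The MWCNT-treated rats had 56.6, 47.1, and 50.5, then 33.3, 53.2, and 45.0, then 33.8, 37.1, and 33.0 TPM, each below every control rat in TPM. On TMM-adjusted log2 CPM, treated replicate 2 of Year 1 (5.48) lay above control replicate 2 of Year 2 (5.46). The log2 fold change of *Actg2* was -1.01 (SE 0.16, FDR 0.00154), -0.96 (SE 0.19, FDR 0.00430), and -1.003 (SE 0.19, FDR 0.00195). The actin genes are near-identical in their coding sequence, and how reads shared between them were assigned is not given in the sources used here, so the split of reads among actins is uncertain. The striated muscle actins, which belong to the heart and skeletal lists below, moved in opposite directions. *Actc1* of heart was 144 ± 109.7 TPM in control and 30.7 ± 14.6 TPM in treated rats at Year 2 (log2 fold change -1.99, SE 0.50, FDR 0.00924). *Acta1* of skeletal muscle was 1.205 ± 0.69 and 6.01 ± 2.38 TPM (log2 fold change 2.54, SE 0.45, FDR 0.00153), with at most 96 counts in a rat.

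The start of *Acta2* is shown because SRF acts through the CArG box, 2 C and 2 G around a core of 6 A or T bases. In the rn6 build of the files, *Acta2* (ENSRNOG00000058039) lies on the minus strand of chromosome 1, from 252537615 to 252550394. The sequence below is from RefSeq in the GRCr8 build, chr1:241172454-241172753, minus strand, and covers 250 bases before and 50 bases after the annotated start. Capitals mark matches to a CArG box in which 1 base of the core is C or G, a form searched for after the exact box had not been found in this window.
*Acta2*: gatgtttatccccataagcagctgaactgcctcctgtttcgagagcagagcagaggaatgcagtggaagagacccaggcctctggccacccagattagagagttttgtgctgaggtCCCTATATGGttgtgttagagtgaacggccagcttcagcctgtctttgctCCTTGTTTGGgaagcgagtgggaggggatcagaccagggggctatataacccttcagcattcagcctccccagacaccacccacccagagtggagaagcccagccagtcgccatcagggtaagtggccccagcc
The matches lie 134 to 125 and 84 to 75 bases before the start. RefSeq promoters were given for 6 of the 10 genes (*Acta2*, *Cnn1*, *Des*, *Actg2*, *Synpo2*, and *Smtn*), and not for *Tagln*, *Myh11*, *Lmod1*, and *Myocd*. The exact box was found on either strand in 0 of these 6 windows and in 548 of all 33469 windows (1.64%), and the form with 1 C or G in the core in 1 of 6 (*Acta2*) and in 2712 of all windows (8.10%). A match is only a match of letters in this window, and a part of SRF in the fall of these genes was not tested.

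*Tagln* (transgelin, or SM22, an actin-bundling protein) was the most abundant of the genes in control lungs together with *Acta2*. In control rats it was 452, 380.4, and 528 TPM at Year 0.5, 426, 447, and 416 TPM at Year 1, and 489, 365, and 373 TPM at Year 2. In MWCNT-treated rats the values were 275, 223, and 243, then 187, 221, and 206, then 163, 222, and 192 TPM. Treated and control rats did not overlap across years. The log2 fold change was -0.74, -0.83, and -0.88, with an SE between 0.10 and 0.15 and FDRs of 0.00129, 0.000259, and 0.00113.

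*Cnn1* encodes calponin, which binds thin filaments and damps the myosin ATPase, and it was the gene with the steepest mean fall. In control rats it was 105, 70.6, and 150.0 TPM at Year 0.5, 108, 109, and 87.6 TPM at Year 1, and 118, 64.8, and 79.0 TPM at Year 2. In treated rats it was 53.0, 41.0, and 38.9 TPM, then 24.5, 44.4, and 38.6 TPM, then 29.8, 39.1, and 22.8 TPM. Control rats of one group differed by up to about the size of the treatment effect, yet the lowest control rat remained above the highest treated rat. Its log2 fold change was -1.15 (SE 0.24, FDR 0.0051), -1.25 (SE 0.21, FDR 0.00173), and -1.31 (SE 0.26, FDR 0.00253).

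Among the other thin filament proteins, *Lmod1* (leiomodin, which starts new actin filaments) was 15.3 ± 3.68, 16.4 ± 1.56, and 12.6 ± 0.719 TPM (SD, n = 3) in control rats and 8.56 ± 0.764, 6.88 ± 1.68, and 5.82 ± 0.134 TPM in treated rats. It fell by 0.70, 1.02, and 0.91 on the log2 scale. *Synpo2* (myopodin, an actin-binding protein of dense bodies) was 21.1 ± 3.35, 21.96 ± 1.95, and 16.1 ± 2.23 TPM against 13.5 ± 0.486, 11.4 ± 1.06, and 9.996 ± 0.387 TPM, and fell by 0.50, 0.71, and 0.47. All 6 tests had an FDR below 0.05, the highest being 0.00747.

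*Smtn* (smoothelin, bound to actin filaments of contractile smooth muscle) had the smallest log2 fold change of the members at Years 1 and 2, and at Year 0.5 stood next to *Synpo2*. Control rats had 44.4, 42.5, and 51.3 TPM at Year 0.5, 44.8, 43.0, and 40.8 TPM at Year 1, and 42.0, 41.6, and 40.1 TPM at Year 2. The MWCNT-treated rats had 30.8, 28.9, and 28.4, then 27.7, 23.0, and 31.6, then 29.4, 34.3, and 30.7 TPM. The log2 fold change was -0.51 (SE 0.08, FDR 0.00143) at Year 0.5, -0.41 (SE 0.10, FDR 0.0102) at Year 1, and -0.18 (SE 0.08, FDR 0.0883) at Year 2. The last depended on the scale. The treated rats lay below the control rats in TPM, but on TMM-adjusted CPM treated replicate 2 (63.9 CPM) reached control replicate 3 (63.8 CPM). With library size as the only scaling the log2 fold change at Year 2 was -0.35 (FDR 0.00608), in a fit where the median of all genes was itself -0.18.

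*Myh11*, the smooth muscle myosin heavy chain and the most specific of the smooth muscle markers, was 113, 92.8, and 148 TPM in the control rats of Year 0.5 and 75.2, 59.98, and 62.1 TPM in the treated rats. At Year 1 the values were 112, 133, and 111 TPM against 43.8, 33.0, and 53.2 TPM, and at Year 2 they were 119.6, 86.2, and 96.1 TPM against 39.2, 45.3, and 40.1 TPM. Groups did not overlap, and the treated rats of Years 1 and 2 all lay below those of Year 0.5. The log2 fold change was -0.70 (SE 0.15, FDR 0.00714), -1.22 (SE 0.14, FDR 0.000226), and -1.07 (SE 0.13, FDR 0.000191).

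*Des* (desmin, the intermediate filament of muscle cells) was 163 ± 44.03, 156 ± 10.4, and 136 ± 20.2 TPM in control rats and 91.1 ± 6.41, 82.7 ± 13.2, and 83.5 ± 6.19 TPM in treated rats. It fell by 0.70, 0.67, and 0.49 on the log2 scale (FDR 0.00909, 0.00358, and 0.00997). Desmin is also made in heart and skeletal muscle, whose markers are given below.

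*Myocd* encodes myocardin, the SRF cofactor that drives the contractile genes of smooth muscle and heart, and was the least abundant member. It was 2.98, 2.97, and 3.85 TPM in control rats at Year 0.5, 2.38, 3.82, and 2.88 TPM at Year 1, and 1.84, 2.74, and 2.67 TPM at Year 2. In treated rats it was 2.07, 1.97, and 1.45 TPM, then 0.881, 1.17, and 1.21 TPM, then 0.895, 0.959, and 0.754 TPM. Within each year the groups did not overlap, but across years 7 of 9 treated rats lay below every control rat, since the control rats of Year 2 reached the treated rats of Year 0.5. The log2 fold change was -0.69 (SE 0.20, FDR 0.0235), -1.23 (SE 0.23, FDR 0.00273), and -1.25 (SE 0.23, FDR 0.00183). At Year 0.5 the call was lost without control replicate 3 (FDR 0.0699) or MWCNT replicate 3 (FDR 0.0685).

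**Figure D2:**
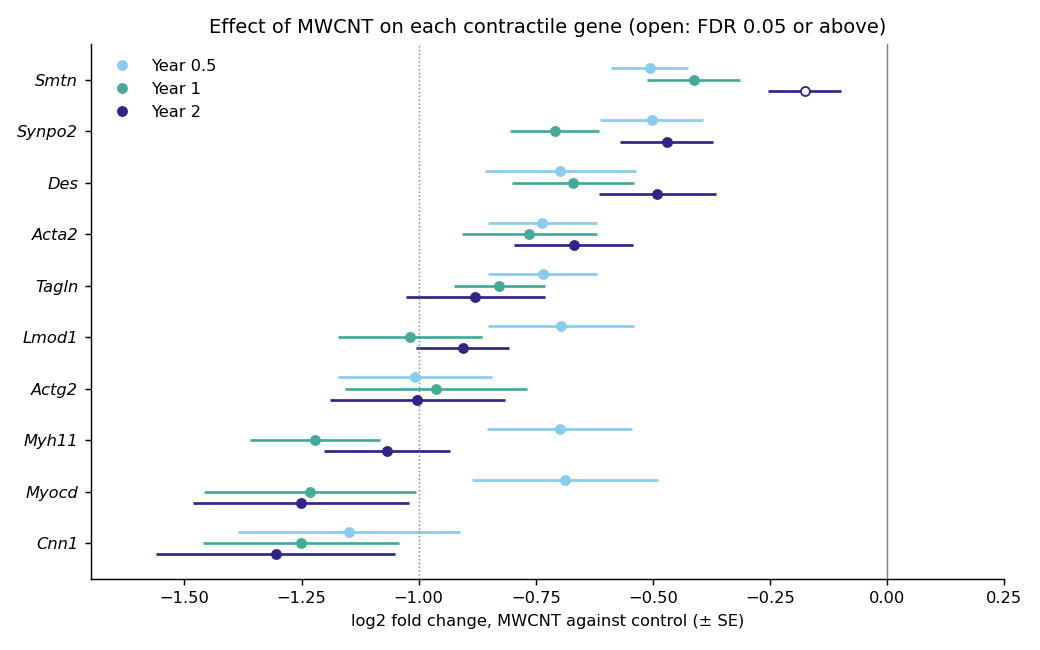
Log2 fold change of MWCNT-treated against control rats for each contractile gene and year, with bars of 1 SE; filled points have an FDR below 0.05, the open point (*Smtn* at Year 2) does not, and the dotted line marks the DEG limit of -1. All 30 points lie below 0, from -0.18 to -1.31.

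In the order of levels by median TPM over the 9 control rats, *Tagln* (426) was followed by *Acta2* (385), *Des* (155), *Myh11* (112), *Cnn1* (105), *Actg2* (93.4), *Smtn* (42.5), *Synpo2* (20.3), *Lmod1* (14.4), and *Myocd* (2.88). *Cnn1* exceeded *Actg2* in only 5 of 9 control rats, and these neighbours did not differ beyond their spread. *Tagln* over *Acta2* and *Myh11* over *Cnn1* each held in 8 of 9 rats, and the remaining steps in 9 of 9. In the MWCNT-treated rats the medians were 228 for *Acta2* and 221 for *Tagln*, with *Acta2* above in 5 of 9 rats, then 88.3 for *Des*, 45.3 for *Myh11*, 45.0 for *Actg2*, 38.9 for *Cnn1*, 29.4 for *Smtn*, 10.9 for *Synpo2*, 6.18 for *Lmod1*, and 1.17 for *Myocd*. *Cnn1* was thus below *Actg2* in the order of treated rats, and above it in 1 of 9.

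Whether the genes fell to an equal extent was tested on the log2 ratio of each gene's count to that of *Myh11* in the same rat, which needs no scaling between libraries. This comparison was chosen after the values had been seen. MWCNT-treated and control rats were compared within years by a two-sided exact permutation test over 8000 arrangements, with Benjamini-Hochberg adjustment over the 9 genes. Relative to *Myh11*, treated rats had more *Smtn* (mean difference 0.62, adjusted p = 0.00338 by exact permutation), *Synpo2* (0.43, adjusted p = 0.00338 by exact permutation), *Des* (0.38, adjusted p = 0.0045 by exact permutation), and *Acta2* (0.27, adjusted p = 0.0248 by exact permutation). These are means over the 3 years. At Years 0.5, 1, and 2 the difference was -0.05, 0.45, and 0.39 for *Acta2*, 0.02, 0.55, and 0.57 for *Des*, 0.19, 0.52, and 0.59 for *Synpo2*, and 0.18, 0.82, and 0.87 for *Smtn*, and the change between years was not tested. For *Tagln* (0.18), *Lmod1* (0.12), *Actg2* (0.01), *Myocd* (-0.07), and *Cnn1* (-0.24) the adjusted p was 0.0855 or higher by the same exact test. The ratios of *Smtn*, *Synpo2*, and *Des* passed the threshold with any rat left out, but that of *Acta2* was lost without any single control rat of Year 1 (adjusted p up to 0.0703 by exact permutation). MWCNT replicate 2 of Year 1 had the lowest *Myh11* of all rats (33.0 TPM). Without this rat the mean difference over years was 0.17 for *Acta2*, 0.29 for *Des*, and -0.36 for *Cnn1* (for *Cnn1*, adjusted p = 0.00675 by exact permutation). The Year 1 differences of *Acta2* and *Des* thus rested largely on it. In the treated rats of Year 1 the SD of the log2 ratio was 0.52 for *Acta2* and 0.45 for *Des*.

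**Figure D3:**
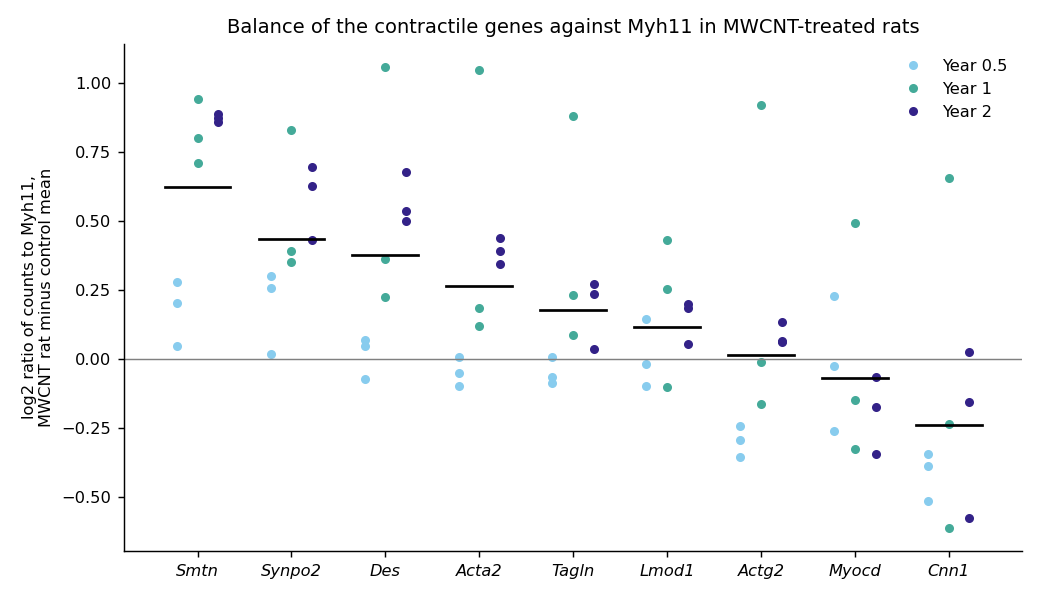
Log2 ratio of counts to *Myh11* in each MWCNT-treated rat minus the mean of the 3 control rats of the same year, coloured by year, with a bar at the mean over years. *Smtn* stood highest at 0.62 and *Cnn1* lowest at -0.24; for *Smtn*, *Des*, and *Acta2* the points of Year 0.5 lie below those of Years 1 and 2.

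The size of the treatment effect was compared between years in one model of all 18 rats. For Year 2 against Year 0.5 the difference of the log2 fold changes ranged from -0.56 for *Myocd* (SE 0.30) to 0.34 for *Smtn* (SE 0.13), and 0 of 10 genes had an FDR below 0.05 in edgeR or DESeq2, against 1.31% of the 14843 genes tested in edgeR. One gene, *Smtn*, had an unadjusted p below 0.05 (0.0162, FDR 0.229). For Year 1 against Year 0.5 the count was again 0 with both tools, with *Myh11* at an unadjusted p of 0.0406 (difference -0.53, SE 0.24, FDR 0.578), and 0% of the 14843 genes passed in edgeR. The standard errors were from 0.13 to 0.40 on the log2 scale. Differences clearly above their standard error, as for *Smtn* and *Myh11*, did not pass either. With 3 rats per group the counts of 0 thus do not show that the effects were equal between years.

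A few of the genes differed between years within a treatment. From Year 0.5 to Year 2, *Synpo2* fell in control rats (log2 fold change -0.38, SE 0.11, FDR 0.0394), alone among the 10, where 4% of all tested genes fell. This call was lost when either of replicates 1 and 3 of Year 0.5 or replicates 1 and 2 of Year 2 was left out. In MWCNT-treated rats *Myocd* (-0.99, SE 0.22, FDR 0.00737), *Myh11* (-0.58, SE 0.17, FDR 0.0323), and *Synpo2* (-0.34, SE 0.11, FDR 0.0431) fell, against 6.87% of all tested genes. Of these 3 calls, 1 remained without replicate 1 of Year 0.5 or without any one replicate of Year 2. The library numbers of Year 2 do not follow on from those of the earlier years in the labels, so time and library handling cannot be told apart, and that the fall was confined to treated rats was not shown, as the interactions above did not pass.

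Rats within a group tended to deviate together across the genes, though not in every case. In control rats of Year 0.5, replicate 3 was the highest for 10 of 10 genes and replicate 2 the lowest for 9 of 10. Replicate 1 was the highest control rat of Year 2 for 8 of 10 genes, replicate 3 the lowest of Year 1 for 8 of 10, and among treated rats replicate 1 of Year 0.5 was the highest for 10 of 10, replicate 1 of Year 1 the lowest for 8 of 10, and replicate 2 of Year 2 the highest for 9 of 10. By contrast, treated replicate 2 of Year 1 was the highest for 6 genes and the lowest for 2, *Myh11* and *Smtn*. Control replicate 1 of Year 2 was also the lowest for 2 genes. Over the 45 pairs of genes the correlation of these deviations had a median of 0.53 (range 0.06 to 0.96, 18 rats), as a description. Such counts and correlations were not computed for other genes. The spread between rats was widest for *Cnn1* and *Actg2* and narrow for *Smtn* and *Synpo2*. Control replicate 1 of Year 2 is the rat whose library label differs from all others.

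**Figure D4:**
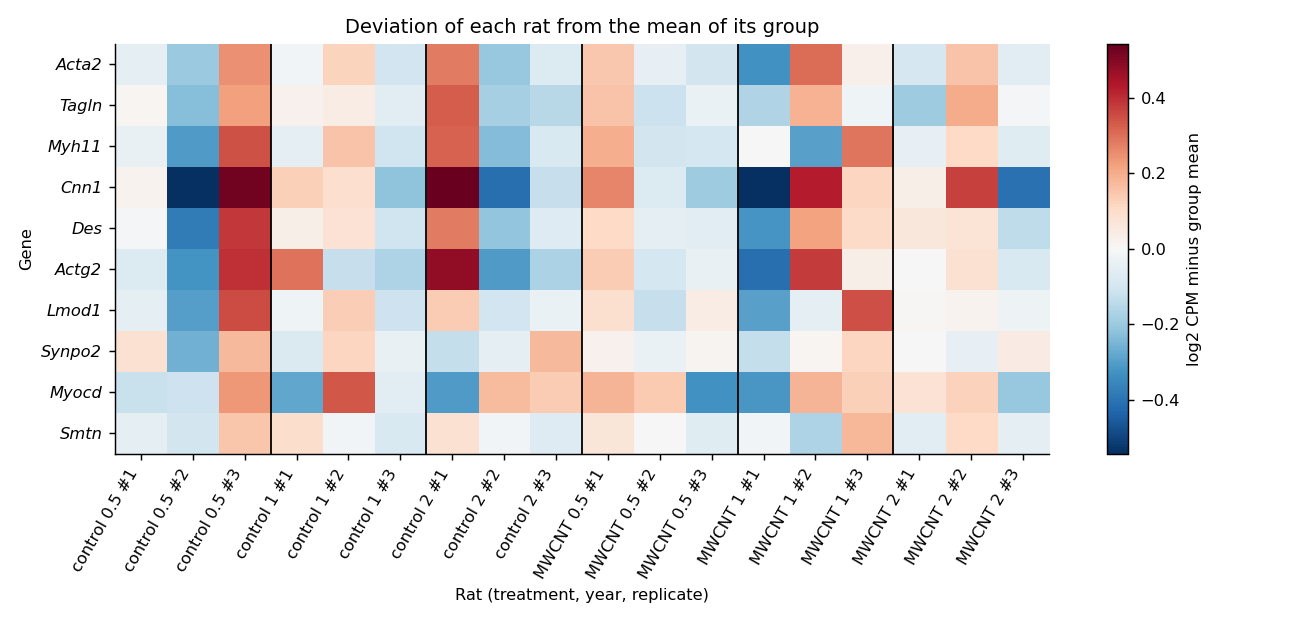
Deviation of each rat from the mean of its group in log2 CPM, for the 10 contractile genes (rows) and 18 rats (columns, labelled by treatment, year, and replicate); red is above and blue below the group mean. Control replicate 3 of Year 0.5 is red and replicate 2 blue in nearly every row, and *Cnn1* has the deepest colours.

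The genes whose log2 CPM followed *Acta2* most closely over the 18 rats were *Myl9*, the regulatory light chain of smooth muscle myosin (r = 0.984, rho = 0.979), *Tpm2*, a tropomyosin (r = 0.980, rho = 0.969), *Tagln* (r = 0.975), *Cnn1* (r = 0.970), and *Des* (r = 0.964). For *Myh11* they were *Adcy5*, an adenylyl cyclase (r = 0.968, rho = 0.965), *Lmod1* (r = 0.964), *Agbl2* (r = 0.962), *Atp1b2* (r = 0.956), and *Cep126* (r = 0.956). These 18 points fall into a control and a treated cluster, so the coefficients contain the treatment effect and only describe likeness. The lists of 5 nearest genes of *Acta2* and *Myh11* shared no gene.

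Other parts of the contractile machinery moved less evenly. Against them stand the 20.2%, 21.6%, and 25.2% of all tested genes that were upregulated at Years 0.5, 1, and 2, and the shares downregulated given above. Of 10 tested genes for myosin and its regulators, 4, 7, and 4 were downregulated and 0, 0, and 2 upregulated at Years 0.5, 1, and 2, with a median log2 fold change of -0.17, -0.43, and -0.17. *Mylk*, myosin light chain kinase, fell by 0.95 (FDR 9.02e-06) and *Ppp1r14a*, the CPI-17 inhibitor of myosin phosphatase, by 1.65 (FDR 2.61e-05) at Year 2. *Rhoa* and *Myh10*, which are used by most cell types and were named after their values were seen, were the 2 genes higher at Year 2 (0.21 and 0.33). With library size only, neither passed, and the counts were 7, 7, and 6 lower and 0 higher.

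Of 17 thin filament and anchoring proteins, 12 were downregulated at each time point and 2, 1, and 3 upregulated (median -0.46, -0.45, and -0.51). *Nexn* (nexilin, an actin-binding protein) fell by 1.42 (FDR 2.8e-06) and *Pgm5* (a phosphoglucomutase-like protein of muscle adhesion sites) by 1.32 (FDR 4.12e-06) at Year 2. The genes higher at Year 2, named after their values were seen, were *Pdlim7* (0.59), *Actn1* (0.39), and *Flna* (0.34), and *Flna* did not pass with library size only (0.17, FDR 0.0619).

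Of 6 genes for SRF and its cofactors or repressors, 3, 2, and 4 were downregulated, and 1 was upregulated at each time point. *Klf4*, a repressor of contractile genes, fell by 1.30 (FDR 5.37e-05) and *Foxf1*, a factor of lung mesenchyme and endothelium, by 1.91 (FDR 1.09e-05) at Year 2. The upregulated gene was *Mrtfa*, an SRF cofactor found in most cells and named after its values were seen, at 0.36, 0.27, and 0.37 (FDR 0.00379, 0.0165, and 0.00468). With library size only, it passed at Year 0.5 alone. *Srf* itself was at -0.15 (FDR 0.254), 0.05 (FDR 0.683), and -0.27 (FDR 0.0290).

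Receptors and channels of contractile cells were mostly lower, with 8 of 13, 11 of 14, and 8 of 14 tested genes downregulated and 1, 1, and 2 upregulated (median -0.65, -0.79, and -0.71). *Ednra*, the endothelin A receptor, fell by 0.84 (FDR 1.10e-05) and *Agtr1a*, an angiotensin II receptor, by 0.77 (FDR 0.000253) at Year 2. *Cysltr1*, a leukotriene receptor that macrophages and other leukocytes also make and that was named after its values were seen, was higher at each time point (1.32, 1.18, and 1.97).

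As a list, genes of fibrillar matrix and activated fibroblasts did not share the fall of the contractile genes. Of 10, 10, and 11 tested genes, 5, 3, and 5 were upregulated and 2, 2, and 1 downregulated, with a median log2 fold change of 0.23, -0.02, and 0.64. With library size only, 3, 3, and 4 were upregulated and 2, 3, and 1 downregulated. At Year 2 *Fn1*, fibronectin, was higher by 1.49 (FDR 2.1e-06) and *Col1a1*, a chain of type I collagen, by 1.22 (FDR 1.51e-05), while *Acta2* was lower in the same rats. *Postn* and *Itga11* of this list, named after their values were seen, went the other way. With library size only, *Postn* was at -0.49, -0.47, and -0.57 (FDR 0.000407, 0.00245, and 0.00016). In that fit *Itga11* was at -0.73 (FDR 0.0243), -1.09 (FDR 0.00238), and -0.23 (FDR 0.464).

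Markers of other cell types moved with the contractile genes, and their part in the fall was not tested. Of 8 pericyte markers, 8, 7, and 5 were downregulated (median -0.58, -0.55, and -0.53), among them *Cspg4* (-0.67, FDR 6.53e-05) and *Abcc9* (-0.75, FDR 0.000573) at Year 2, and their summed TPM was 448 to 586 in control and 249 to 408 in treated rats. *Rgs5*, named after its values were seen, was not lower at Year 2 (37.5 ± 6.81 TPM in control and 39.7 ± 1.46 TPM in treated rats). Of 8 alveolar fibroblast markers, 6, 4, and 6 were lower and 2, 1, and 2 higher, with *Limch1* at -1.30 (FDR 6.46e-06) and *Plin2*, a lipid droplet protein that macrophages also make, at 1.17 (FDR 4.7e-06). Of 7 endothelial markers, 7, 6, and 6 were downregulated (median -0.82, -0.73, and -1.07), with *Tek* at -1.81 (FDR 4.17e-06) and *Kdr* at -1.58 (FDR 4.63e-05), and their summed TPM was 2332 to 2959 against 815 to 1656.

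Of 7 airway epithelium markers, 4, 6, and 5 were lower and 0, 0, and 1 higher, with *Cyp2f4* at -1.38 (FDR 0.000526) and *Bpifa1* at 4.11 (FDR 0.00197) at Year 2. Their summed TPM was 18127 to 32927 in control and 10662 to 15660 in treated rats, and it moved with the contractile genes between some rats of both treatments. Both sums had the same order of rats in control rats of Year 1 and in treated rats of Years 0.5 and 1. In the other groups the full order differed. The control rat of Year 0.5 with the lowest contractile genes had 20923 TPM (the others 31742 and 30441), and that of Year 2 with the highest had 28019 TPM (the others 18543 and 18127). Macrophage markers were higher, 8, 7, and 8 of 8, with *Cd68* at 3.03 (FDR 2.63e-07) and *Cd14* at 1.99 (FDR 2.98e-07), and their summed TPM rose from 24160 to 30303 in control rats to 55027 to 64078 in treated rats. Of 6 mesothelial markers, 0, 0, and 2 were lower and 0, 3, and 1 higher, with *Msln* at 0.71 (FDR 0.000812) and *Upk1b* at -0.89 (FDR 0.0077), and with library size only 0, 1, and 1 were higher.

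In rats, sleeves of heart muscle surround the veins of the lung, and heart marker RNA was counted in every library. Of 11, 11, and 10 tested heart markers, 8, 2, and 1 were downregulated, and their summed TPM was 77.7 to 892 in control and 17.7 to 265 in treated rats. *Actc1* had the highest TPM of the list, *Tnni3* was at -2.03 (FDR 0.0602) at Year 2, and *Nppa* was at 0 counts in 14 of 18 rats. The heart and contractile sums had the same order of rats only in control rats of Year 0.5 and treated rats of Year 1. In control replicates 1, 2, and 3 of Year 0.5 the heart sums were 367, 230.2, and 835 TPM and the contractile sums 1444, 1209, and 1809 TPM. In the treated rats of Year 1 they were 17.7, 265, and 189 TPM and 562, 714, and 691 TPM. The order differed in all other groups. For example, control rats of Year 2 had heart sums of 77.7, 299, and 892 TPM and contractile sums of 1505, 1106, and 1191 TPM. The part of heart muscle in the fall of the contractile genes was not tested. Of 4 tested skeletal muscle markers, 1, 0, and 0 were lower and 2 higher at each time point, the latter being *Acta1* and *Myh4* (0.88, FDR 0.0299, at Year 2). With library size only, 1, 2, and 1 were higher.

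**Figure D5:**
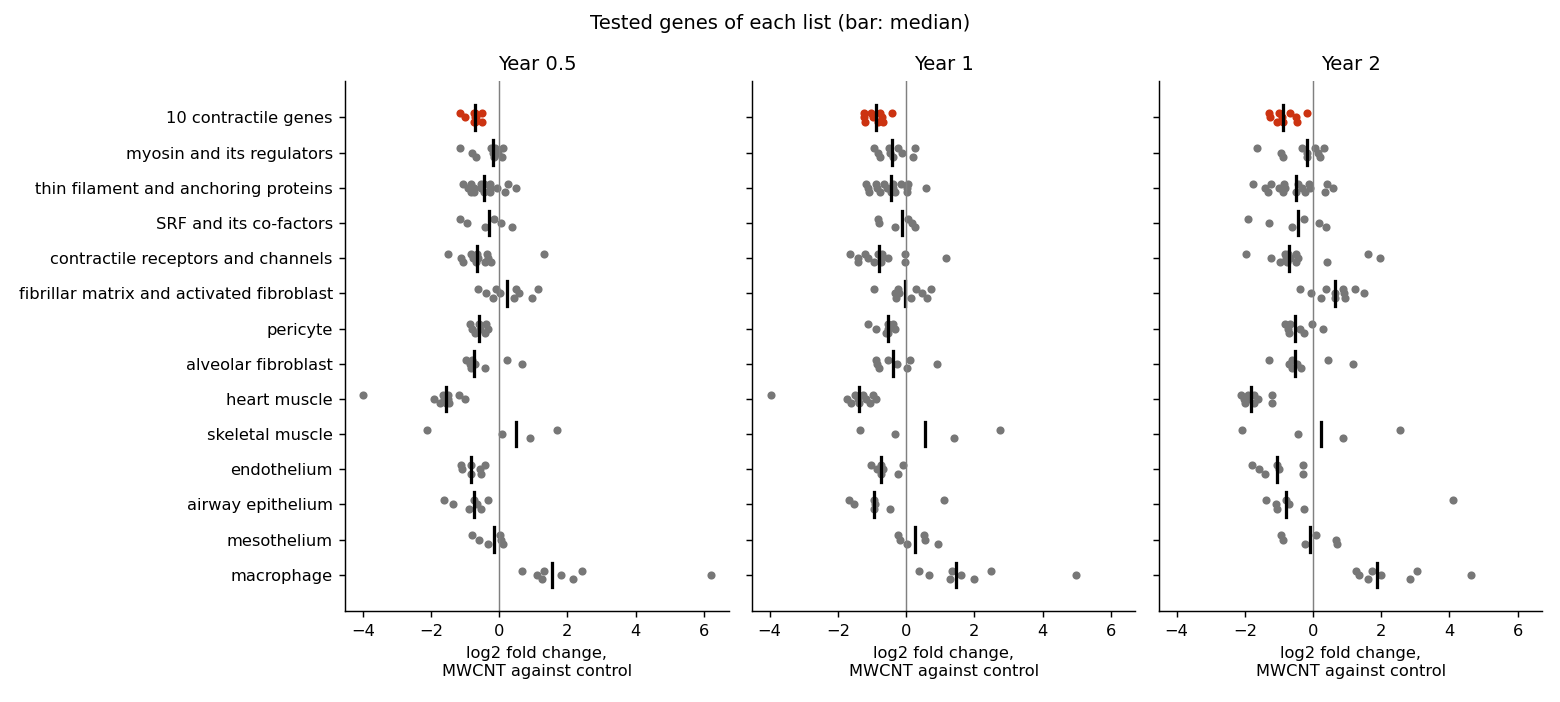
Log2 fold change of MWCNT-treated against control rats for the tested genes of each list, by year, with the 10 contractile genes in red and a bar at each median. The contractile genes lie entirely below 0 (medians -0.70, -0.90, and -0.89), the matrix list straddles 0, and macrophage markers lie above it.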

How the data were processed

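Lungs of 18 rats (3 per group) were analysed. The authors mapped the reads to the rat genome (Rnor_6.0, or rn6, per the labels) with CLC Genomics Workbench and deposited raw, whole-number read counts per gene. TPM values were also deposited, calculated by the same software. Strand and multi-mapping settings are not given in the sources used here. The deposited RPKM and TMM-adjusted CPM columns were not used, nor were the authors' own comparison columns, which hold fold changes and p-values.

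Testing used edgeR 4.0.16 (R 4.3.3) with filterByExpr (minimum count 10, total 15), TMM factors, and the quasi-likelihood test on the 6 rats of each year, or on all 18 rats for time and interaction. FDRs are Benjamini-Hochberg values over all genes tested. CPM in the text was computed from the counts with the same factors. Scripts were tested on simulated data. Ratios to *Myh11* and promoter matches were computed in Python 3.11.15. The edgeR p-values set the difference between groups against the spread between rats, moderated over all genes. Those of the ratios rank the observed difference among the arrangements of rats within years.

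All 10 contractile genes are named. From each of the 13 other lists, the 2 genes with the lowest FDR at Year 2 are named, with heart and skeletal genes at 0 or with the highest TPM, and for *Acta2* and *Myh11* the 5 genes with the highest Pearson r. The contractile genes and lists were chosen with earlier results of these data known.

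Alternatives were DESeq2 1.42.0, limma 3.58.1 on log2(TPM + 1) and log2(TPM + 0.1), no filter, at least 10 counts in every rat, library size only, a replicate block, one model of all rats, leaving out single rats, and an FDR below 0.01. The ratios to *Myh11*, the lists under library size only, and the relaxed CArG box were added after the data were seen.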

Additional observations from a re-analysis of the deposited data

How the results depend on the processing

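All 450 log2 fold changes of the 10 contractile genes under 15 alternative settings were negative, and 443 kept their side of the FDR threshold. The setting with an FDR below 0.01 reused the main fit, so its fold changes were not recomputed. *Smtn* at Year 2 passed with library size only and with limma on either TPM scale, while *Myocd* at Year 0.5 did not pass without control or MWCNT replicate 3, and neither it nor *Smtn* at Year 1 passed at an FDR below 0.01. Library size only moved the median of all genes to -0.12, -0.13, and -0.18 and that of the contractile genes to -0.80, -1.03, and -1.06 at Years 0.5, 1, and 2.

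Counts of DEGs were less stable. With 1 rat left out they were 0 to 2 for Year 0.5, 3 to 5 for Year 1, and 1 to 4 for Year 2, and for Year 1 limma on log2(TPM + 0.1) gave 7. With 1 rat left out, counts at an FDR below 0.05 were 9 to 10, 10 to 10, and 9 to 9. For Year 2 against Year 0.5, 0 genes passed in control rats with library size only, limma on log2(TPM + 1), or an FDR below 0.01, and 0 to 1 with 1 rat left out. In MWCNT-treated rats 1 gene passed at an FDR below 0.01, and 1 to 2 with 1 rat left out. The causes of these changes were not tested. The interaction counts stayed at 0 in all fits run.

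Replicate numbers recur between the groups of a year but mark separate animals. Deviations of same-numbered rats correlated at 0.007 on average over 9 pairs, with 1 over 0.1. With the replicate number as a block, the count of DEGs at Year 0.5 was 1.

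Among ratios to *Myh11*, that of *Tagln* passed when any of 3 rats was left out, and that of *Lmod1* without 1 rat. With 3 rats per group, effects close to the SE of the fits were not detectable, and some interactions clearly above their SE did not pass. The choice of tissue piece, the cell makeup of each piece, and the handling of reads shared by actin genes are fixed in the deposited counts.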
